A study of Mus musculus with 2 samples.

Results

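The genes described here encode cadherins, protocadherins and the alpha and delta catenins, measured in astrocytes cultured from the dentate gyrus (DG) of mice with and without β-arrestin 1 (β-arr1). Rows of the 2 deposited gene tables were joined on the gene symbol, and a row was taken when its symbol was a numbered Cdh gene, any Pcdh gene, Celsr1 to Celsr3, Fat1 to Fat4, Ctnna1 to Ctnna3, Ctnnd1 or Ctnnd2. This gave 68 genes of 16302, with 66 listed in the wild type (WT) library, 67 in the β-arr1 KO library and 65 in both. The rule reads gene symbols only. Both groups are labelled C57BL/6 (a C57BL/6J background in the study's methods), and the only labelled difference was the Arrb1 genotype, wildtype or Beta-arr1 knockout. The study used littermates from heterozygous crosses and also offspring of WT and KO lines kept apart as homozygotes. Its methods do not say which of these gave the cultures. The knockout is constitutive, so every cell of the KO mice lacks β-arr1. Cells were dissociated from adult DG, grown in medium with serum and shaken to detach oligodendrocyte progenitors, neurons and dividing cells before RNA was taken, and the cDNA was pooled. Sex was not given in the sources used here. There was 1 library per genotype, so no difference between WT and KO has a replicate check and no p-value was computed.

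Cadherins are calcium-dependent adhesion proteins of the cell surface. Classical cadherins bind like cadherins on the next cell and hold, on the inside, delta-catenin (p120 catenin and its relatives) and beta-catenin, and alpha-catenin links this complex to actin. Type I and type II classical cadherins differ in the outermost repeat that makes the contact. Protocadherins have the same extracellular repeats without the classical catenin-binding tail, and the clustered ones are encoded side by side and give neural cells a combinatorial surface identity. Fat and Celsr proteins are giant cadherins of tissue growth and planar cell polarity. In astrocytes, cadherins hold neighbouring cells and neural stem cells of the niche together.

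Values are FPKM (fragments per kilobase of transcript, scaled to the mapped fragments of the library), so that levels of different genes can be set side by side per length. A ratio is KO FPKM over WT FPKM with no pseudocount, and the limits of 3/2 and 2/3 are those used in the study. Genes with at least 1 FPKM in one library were analysed. Steps in the lowest values corresponded to 9.54 M mapped fragments in WT and 9.82 M in KO, from which fragments per gene and a 95% Clopper-Pearson interval of each ratio were estimated. Such intervals cover counting error only, not differences between mice or cultures. Arrb1 was at 7.62 FPKM (WT) against 2.72 FPKM (KO), giving a ratio of 0.358, so that the target was lower in the KO library but still listed. All 8 astrocyte markers were listed in both libraries, with Gfap at 189 and 192 FPKM and the list summing to 299.6 and 343 FPKM. Markers of other cells were present too. The 5 microglia markers summed to 199.6 FPKM (WT) against 185 FPKM (KO), and the 5 fibroblast markers to 523 and 278 FPKM. In such a bulk culture, fewer cells of a type and less RNA per cell cannot be told apart.

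Of the 68 genes, 35 had 1 FPKM or more in a library. Pcdh10, Pcdh17, Cdh18, Cdh20, Celsr1 and Ctnnd2 lay above 3/2, Cdh5 and Cdh17 lay below 2/3, and 27 genes lay between. The 6 genes above the upper limit were 17.1% of the 35, beside 9.56% of the 12646 genes analysed in all. The 2 genes below the lower limit were 5.71%, beside 8.28%. Cdh20 passed the minimum through the KO library alone and Cdh17 through the WT library alone. With 1 FPKM required in both libraries the numbers were 5 and 1 of 32 genes. Of the 34 genes with an interval, all 6 had it above 1 and both of the 2 had it below 1, while such calls made up 7.07% and 5.90% of the 11841 genes with an interval. The median of log2((KO + 0.1)/(WT + 0.1)) was 0.20 over the 35 genes and 0.02 over all genes analysed. With 1 library each, these shares describe the 2 libraries only.

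**Figure D1:**
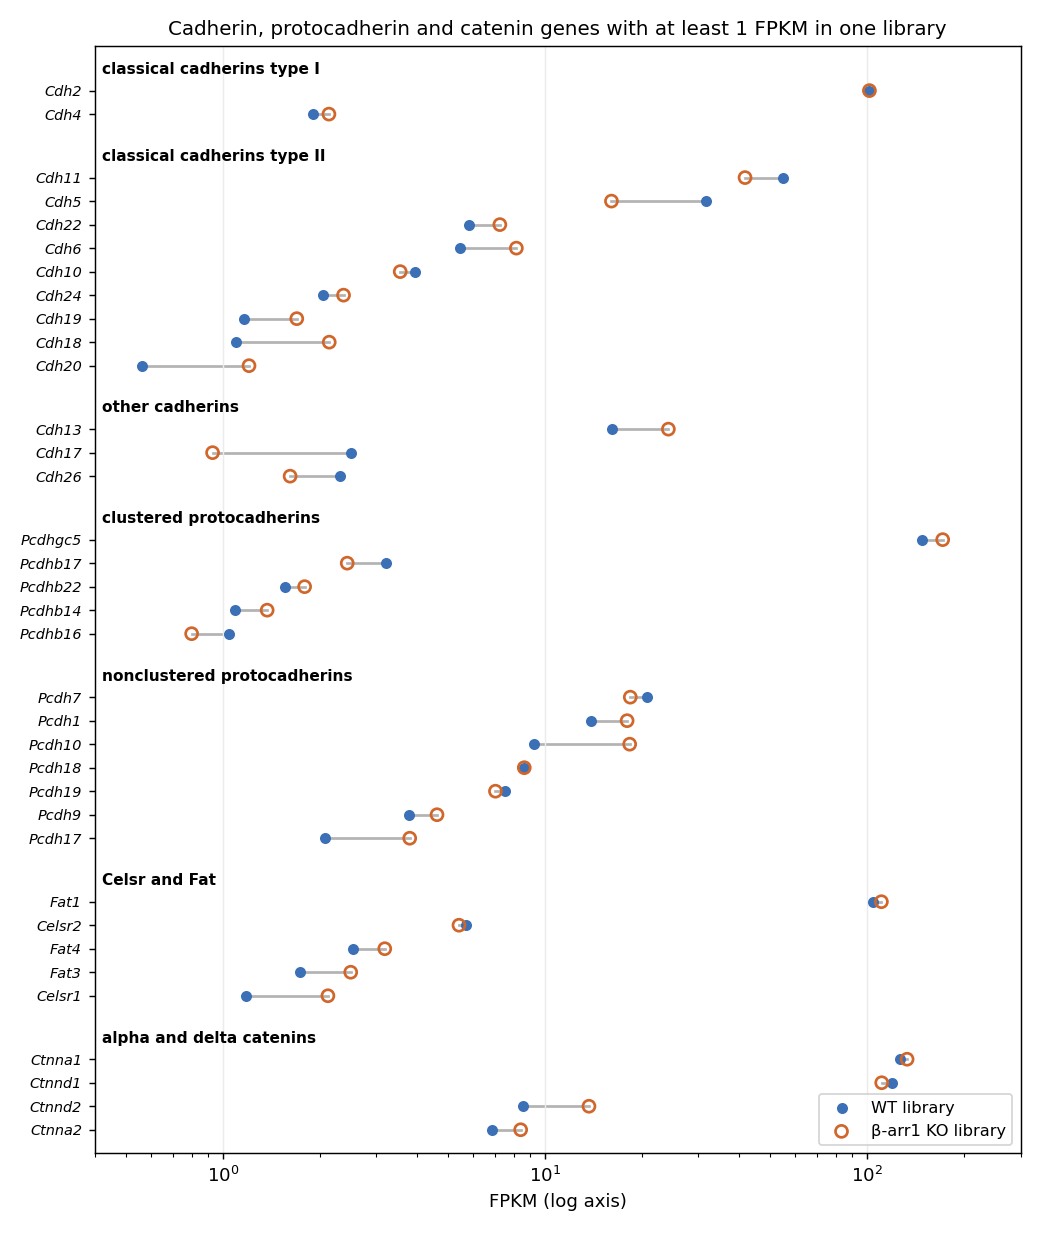
FPKM on a log axis in the WT library (filled points) and the β-arr1 KO library (open points) for the 35 genes with at least 1 FPKM in one library, grouped by role, with a line joining both values of a gene. Cdh2, Fat1, Ctnna1 and Ctnnd1 lie near 100 FPKM with both points close together, Cdh5 is lower in KO and Pcdh10 is higher in KO.

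Apart from a row that spans many protocadherins, the 4 genes with the highest values were Ctnna1, Ctnnd1, the giant cadherin Fat1 and Cdh2. They differed little. Ctnna1, which encodes αE-catenin, was at 127 FPKM (WT) against 133 FPKM (KO). Ctnnd1, which encodes p120 catenin and stabilises cadherins at the membrane, was at 120.0 and 111 FPKM. Fat1 was at 104 and 111 FPKM. Cdh2, which encodes N-cadherin, was at 101 and 102 FPKM. These 4 genes held 65.6% of the summed FPKM of the other 67 genes in WT and 65.4% in KO. Their ratios were 1.05 for Ctnna1, 0.926 for Ctnnd1, 1.06 for Fat1 and 1.00 for Cdh2. The interval of Cdh2, from 0.964 to 1.05, included 1. The intervals of Ctnna1 (1.01 to 1.09), Ctnnd1 (0.896 to 0.958) and Fat1 (1.04 to 1.09) left 1 out, with at least 4280 estimated fragments behind each value, and stayed far inside the limits. The Ctnnd1 row began at 84440938 of chromosome 2 in WT and at 84427354 in KO, and the interval takes no account of this.

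Among type I cadherins, Cdh2 stood far above the others. It made up 48.1% of the summed FPKM of the 17 classical cadherins in WT and 53.9% in KO. Cdh4, which encodes R-cadherin, was at 1.90 and 2.14 FPKM, giving a ratio of 1.12 (interval, 0.865 to 1.46). Cdh1 (E-cadherin), Cdh3 (P-cadherin) and Cdh15 (M-cadherin) were below 1 FPKM in both libraries and are described with the low genes. The culture therefore had N-cadherin as its one abundant type I cadherin, in both genotypes.

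Among the 12 type II cadherins, the highest were Cdh11 and Cdh5, and both were lower in KO. Cdh5 (NCBI gene 12562, chromosome 8 of mm9 from 106625525 to 106668402 in the WT table) encodes VE-cadherin, the adhesion molecule of endothelial junctions. Its level was 31.8 FPKM (WT) against 16.1 FPKM (KO). This is a ratio of 0.507 (log2 ratio, -0.98), with an interval of 0.459 to 0.560 from about 1156 and 603 fragments. No other listed gene overlapped the row, and under 6 other ways to scale the libraries, sum rows or add a pseudocount, the ratio lay between 0.498 and 0.522. Cdh5 exceeded each of the 7 other endothelial markers in both libraries, and of those markers most were higher and some lower in KO. Their sum was 27.2 FPKM (WT) against 36.0 FPKM (KO). Pecam1 was at 3.03 and 5.22 FPKM and Flt1 at 4.07 and 6.97 FPKM, ratios of 1.72 and 1.71. Kdr (ratio 1.44), Tie1 (ratio 1.44) and Emcn (ratio 1.15) were also higher in KO. Cldn5 (ratio 0.672) and Tek (ratio 0.686) were lower, from at most 30 estimated fragments. Their intervals (0.253 to 1.70 and 0.373 to 1.24) included 1 and also the ratio of Cdh5. The part of endothelial cells in the difference of Cdh5 was not tested.

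Cdh11 (NCBI gene 12552), which encodes OB-cadherin of mesenchymal cells, was at 54.9 FPKM (WT) against 41.8 FPKM (KO). The ratio, 0.762, lay between the limits, and its interval of 0.715 to 0.813 did not reach 1. Of the 5 fibroblast markers, Col1a1 (420.5 and 237 FPKM), Col1a2 (92.3 and 34.3 FPKM) and Dcn (6.11 and 0.831 FPKM) were below 2/3, Lum was listed in WT only at 0.660 FPKM, and Pdgfra was higher in KO (3.12 and 6.03 FPKM). Of 4 pericyte markers 2 were listed, with sums of 5.85 and 3.67 FPKM. The part of these cells in the difference of Cdh11 was not tested.

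Most other type II cadherins were low and leaned towards KO. Cdh6 (K-cadherin) was at 5.44 FPKM (WT) against 8.16 FPKM (KO), giving a ratio of 1.498, just under the upper limit (interval, 1.19 to 1.89). Cdh22 was at 5.80 and 7.25 FPKM, giving a ratio of 1.25 (interval, 1.03 to 1.51). Both genes thus had intervals above 1 and ratios inside the limits. Cdh18 was at 1.10 FPKM (WT) against 2.14 FPKM (KO), and the ratio, 1.95, came from about 27 and 54 fragments (interval, 1.21 to 3.22). Cdh20 was at 0.560 and 1.21 FPKM, giving a ratio of 2.15 from 21 and 45 fragments (interval, 1.26 to 3.80). With a pseudocount of 1 FPKM these came to 1.496 and 1.41, inside the limits. Cdh19, a cadherin of glia in the peripheral nerve, was at 1.16 and 1.70 FPKM, giving a ratio of 1.46 (interval, 0.915 to 2.36). The 6 Schwann cell markers summed to 82.4 FPKM (WT) against 80.7 FPKM (KO). Of 7 oligodendrocyte lineage markers, Olig1, Olig2 and Sox10 were above 3/2, and the list summed to 82.4 FPKM (WT) against 121 FPKM (KO). The shaking step was meant to take oligodendrocyte progenitors off the plate. The part of either cell type in these cadherin values was not tested. Cdh10 (ratio 0.901) and Cdh24 (ratio 1.16) had intervals that included 1.

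**Figure D2:**
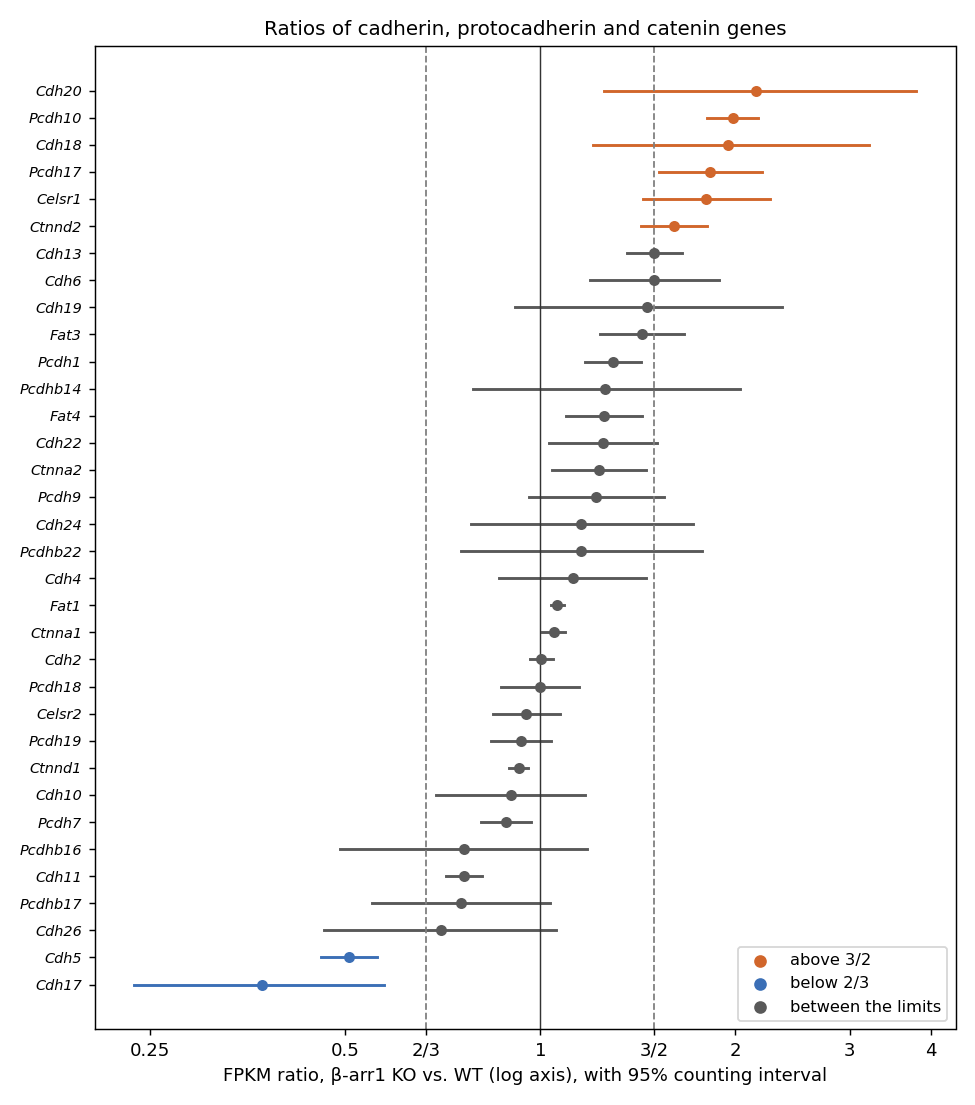
Ratio of FPKM, β-arr1 KO vs. WT, on a log axis with its 95% counting interval for the 34 genes with an interval, ordered by ratio, with dashed lines at 2/3 and 3/2. Cdh20, Pcdh10, Cdh18, Pcdh17, Celsr1 and Ctnnd2 lie above 3/2, Cdh13 and Cdh6 lie on the line, and Cdh5 and Cdh17 lie below 2/3.

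The 3 other cadherins that reached 1 FPKM have an unusual build or tissue. Cdh13 (NCBI gene 12554, chromosome 8 from 120807645 to 121848766 in the WT table) encodes T-cadherin, which is held in the membrane by a lipid anchor, has no cytoplasmic tail and binds adiponectin. It was at 16.1 FPKM (WT) against 24.2 FPKM (KO). Its ratio of 1.499 lay just under the upper limit, with an interval of 1.36 to 1.65 from about 677 and 1044 fragments. Rescaling the libraries to the same total moved Cdh13 to 1.503 and Cdh6 likewise to 1.503, past the limit, and raised the number of genes above it from 6 to 8. Cdh17, the liver-intestine cadherin, was at 2.49 FPKM (WT) against 0.929 FPKM (KO). Its ratio of 0.373 was the lowest among the 35 genes and rested on 78 and 30 fragments (interval, 0.236 to 0.575). Cdh26 was also lower in KO, at 2.30 and 1.62 FPKM, but its interval of 0.463 to 1.06 included 1.

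Of the 12 nonclustered protocadherins, 7 reached 1 FPKM, and 2 of these were above 3/2. Pcdh10 (NCBI gene 18526, chromosome 3 of mm9 from 45182320 to 45238501 in both tables) encodes OL-protocadherin, which recruits the WAVE complex of actin regulators. It was at 9.26 FPKM (WT) against 18.3 FPKM (KO). The ratio was 1.98 (log2 ratio, 0.99), with an interval of 1.81 to 2.17 from about 715 and 1458 fragments. Pcdh17, a relative with the same kind of tail, was at 2.08 FPKM (WT) against 3.80 FPKM (KO), giving a ratio of 1.83 (interval, 1.53 to 2.20). Both lower bounds lay above 3/2, which held for no other of the 35 genes. Over the alternatives Pcdh10 stayed between 1.88 and 1.99 and Pcdh17 between 1.56 and 1.83. The close relatives Pcdh18 and Pcdh19 did not share this pattern. Pcdh18 was at 8.63 FPKM in each library (interval of the ratio, 0.871 to 1.15), and Pcdh19, on chromosome X, was at 7.52 and 7.02 FPKM (interval, 0.840 to 1.04).

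Promoters are shown for Pcdh10, Pcdh17 and Ctnnd2, the 3 genes with the highest KO levels among those above 3/2. Each runs from 250 bases before to 50 bases after the annotated start, 5′ to 3′ on the plus strand, from RefSeq on GRCm38.p6 (not the mm9 build of the other coordinates). They lie at chr3:45378148-45378447, chr14:84443313-84443612 and chr15:30172284-30172583. Capitals mark TGACG or its reverse complement CGTCA, the core of the cyclic AMP response element bound by CREB, a factor with which nuclear β-arr1 has been described to act. The motif was searched on both strands, with overlaps allowed.

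Pcdh10: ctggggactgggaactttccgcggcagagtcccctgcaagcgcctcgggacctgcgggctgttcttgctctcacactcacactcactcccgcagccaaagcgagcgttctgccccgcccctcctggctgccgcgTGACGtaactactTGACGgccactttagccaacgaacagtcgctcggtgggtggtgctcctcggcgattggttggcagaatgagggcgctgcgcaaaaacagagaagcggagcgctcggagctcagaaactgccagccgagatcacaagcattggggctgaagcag
Pcdh17: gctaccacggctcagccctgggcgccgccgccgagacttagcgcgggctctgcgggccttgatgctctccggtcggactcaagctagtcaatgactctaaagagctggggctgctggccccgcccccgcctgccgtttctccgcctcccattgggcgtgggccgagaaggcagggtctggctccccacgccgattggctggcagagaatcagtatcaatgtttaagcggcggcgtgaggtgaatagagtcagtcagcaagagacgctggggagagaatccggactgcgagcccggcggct
Ctnnd2: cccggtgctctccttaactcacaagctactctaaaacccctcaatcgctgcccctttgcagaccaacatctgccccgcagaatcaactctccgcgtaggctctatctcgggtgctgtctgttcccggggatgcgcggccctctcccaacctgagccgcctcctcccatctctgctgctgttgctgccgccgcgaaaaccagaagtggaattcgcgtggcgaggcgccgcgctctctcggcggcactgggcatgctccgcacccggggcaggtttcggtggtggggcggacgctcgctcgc

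The Pcdh10 window held 2 matches, and those of Pcdh17 and Ctnnd2 held none. Of 32851 promoters of this length, 20.8% held at least 1 match. Among 35 promoters that matched 31 of the 68 genes, 6 (17.1%) held one. Pcdh9 was counted with 2 overlapping windows, which start at 93890620 and 93890630 of chromosome 14. A match is a description of letters and no sign of binding.

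The remaining nonclustered protocadherins with at least 1 FPKM lay between the limits. Pcdh7, which encodes BH-protocadherin, had the highest WT level of this group, at 20.8 FPKM, and was at 18.4 FPKM in KO (ratio 0.885, interval 0.811 to 0.966). Pcdh1, of the same delta-1 subfamily, went the other way, from 13.9 to 18.0 FPKM (ratio 1.29, interval 1.17 to 1.43). Pcdh9 was at 3.79 and 4.62 FPKM, with an interval that included 1. Pcdh7 thus came first by a wide margin in WT, while in KO the levels of Pcdh7, Pcdh10 and Pcdh1 all lay between 18.0 and 18.4 FPKM.

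The clustered protocadherins were listed as 23 rows, and they overlap. The row named Pcdhgc5 ran from 37089939 to 38001526 of chromosome 18 of mm9, a span of 911588 bases that takes in the Pcdha, Pcdhb and Pcdhg clusters. In WT, 21 Pcdhb rows and Taf7 lay inside it, and in KO 22 Pcdhb rows, Taf7 and Slc25a2. Other Pcdhg symbols and Pcdha symbols were not analysed here. The value of this row, 149 FPKM (WT) against 172 FPKM (KO), is therefore no level of the single gene Pcdhgc5. Transcripts of the Pcdha and Pcdhg genes join 1 of many variable exons to constant exons shared by the cluster, and a summary per locus adds them up. The ratio was 1.16, and no interval was computed because the length behind the value is not known.

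The Pcdhb genes have 1 exon each and share no constant exons, so their rows can be read one by one, with the caution that each is flagged as overlapping the Pcdhgc5 row. Their sum was 12.5 FPKM (WT) against 11.2 FPKM (KO), giving a ratio of 0.898 (interval, 0.779 to 1.03, from 424 and 379 fragments). The most abundant was Pcdhb17, at 3.22 and 2.43 FPKM (interval of the ratio, 0.550 to 1.03). Only Pcdhb14, Pcdhb16, Pcdhb17 and Pcdhb22 reached 1 FPKM in a library, and none of them was past a limit. The rank of the genes was similar in both libraries, with a Spearman correlation of 0.866 over the 21 genes listed in both. Genes further along the cluster tended to have higher levels, more loosely in KO, with a Spearman correlation between gene number and level of 0.609 in WT and 0.334 in KO over the same 21 genes. These genes share their library and their short single-exon form, and the correlations are descriptions.

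The Pcdhb genes were divided after Pcdhb13, a cut chosen after the values were seen. The shares and counts of each stretch depend on that choice and are descriptions. The 9 genes from Pcdhb14 to Pcdhb22 held 77.7% of the Pcdhb sum in WT and 73.4% in KO. In that stretch 7 of 9 genes were lower in KO, and the sum was 9.72 FPKM (WT) against 8.24 FPKM (KO). Of the 13 genes from Pcdhb1 to Pcdhb13, 8 were higher in KO and 5 lower, with sums of 2.79 and 2.98 FPKM. Over all 12646 genes with at least 1 FPKM in a library, 5938 were lower in KO, while 18 of the 22 Pcdhb genes lay below that minimum. Pcdhb21 was at 0.453 FPKM (WT) against 0.120 FPKM (KO), from 19 and 5 fragments (interval of the ratio, 0.0774 to 0.734). Its annotated transcript, of 4662 bases, is longer than the row itself, of 2712 bases. With the length of the row, the estimate came to 11 and 3 fragments and the interval, 0.0475 to 1.00, included 1, as did the intervals of all other Pcdhb genes listed in both libraries. Near-identical copies can lose or share reads. In the annotated transcripts, 10 of the 21 Pcdhb genes with a match held a window of 100 bases found in another Pcdhb gene, for at most 2.88% of their windows (Pcdhb6). Of 45 genes outside the clusters none held such a window.

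**Figure D3:**
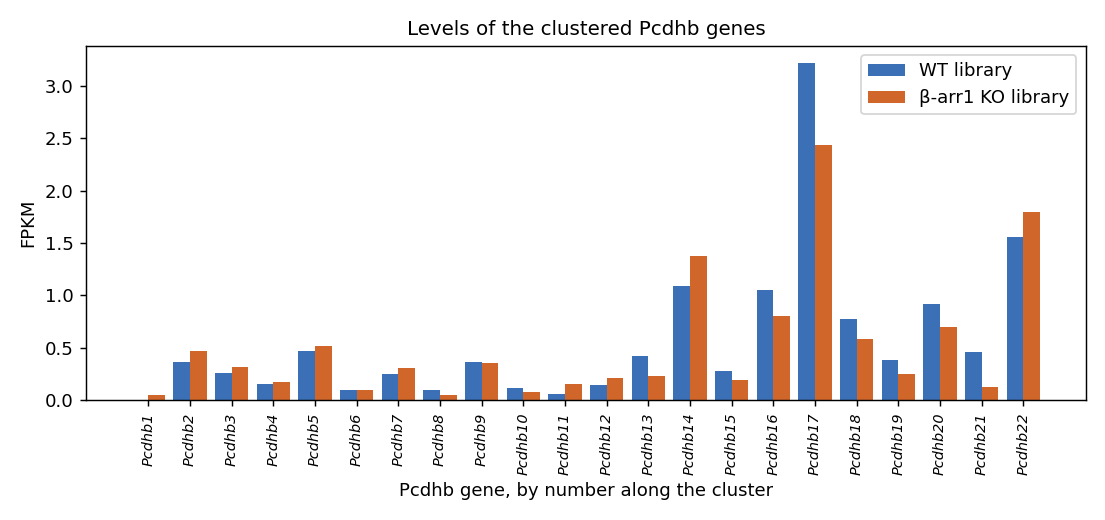
FPKM of the 22 Pcdhb genes in the WT library and the β-arr1 KO library, ordered by gene number along the cluster. Pcdhb14, Pcdhb16, Pcdhb17 and Pcdhb22 are those above 1 FPKM in WT, with Pcdhb17 highest in both libraries at 3.22 and 2.43 FPKM.

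Among the giant cadherins, Celsr1 was the one past a limit. Celsr1 (NCBI gene 12614) encodes a core planar cell polarity protein. It was at 1.18 FPKM (WT) against 2.12 FPKM (KO), giving a ratio of 1.80 from about 122 and 226 fragments (interval, 1.44 to 2.26). With a pseudocount of 1 FPKM the ratio was 1.43. Celsr2 was higher in level and close to 1 in ratio, at 5.69 and 5.41 FPKM (interval, 0.845 to 1.07). Celsr3 was below 1 FPKM, at 0.193 and 0.117 FPKM. Fat3 and Fat4 were both higher in KO inside the limits. Fat3 was at 1.74 and 2.50 FPKM, giving a ratio of 1.43 (interval, 1.24 to 1.66), and its KO row ran from 15714637 to 16306523 of chromosome 9, beyond the WT end of 16182675. Fat4, a receptor for the Dachsous cadherins, was at 2.54 and 3.18 FPKM, giving a ratio of 1.25 (interval, 1.10 to 1.44). Fat2 was at 0.243 and 0.0859 FPKM, with an interval of the ratio of 0.167 to 0.704 from 33 and 12 fragments.

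Among the catenins, the difference lay in the neural delta-catenin. Ctnnd2 (NCBI gene 18163, chromosome 15 from 30102348 to 30959098 in both tables) encodes δ-catenin, a relative of p120 that is abundant in neural tissue. It was at 8.53 FPKM (WT) against 13.7 FPKM (KO), giving a ratio of 1.61 (log2 ratio, 0.69), with an interval of 1.43 to 1.81 from about 467 and 773 fragments. Ctnna2, which encodes the neural αN-catenin, was at 6.83 and 8.41 FPKM, giving a ratio of 1.23 (interval, 1.04 to 1.45). The neural forms were thus both higher in KO, while the ubiquitous Ctnnd1 was slightly lower and Ctnna1 close to even. Most astrocyte, neural stem cell and neuron markers with at least 1 FPKM were higher in KO (7 of 8, 3 of 3 and 2 of 2). Over all 12646 genes analysed, 6707 were higher in KO, and lists this short give only a rough comparison. Of the 8 astrocyte markers, Aqp4, Slc1a2, S100b and Aldoc were above 3/2, Gfap was at a ratio of 1.02, and Gja1 was lower in KO (ratio 0.862, interval 0.785 to 0.947). The 4 listed neural stem cell markers summed to 148 and 196 FPKM, with Sox2 (ratio 1.59) and Prom1 (ratio 2.24) among those above 3/2. The 6 neuron markers summed to 81.7 and 104 FPKM, nearly all from Tubb3 and Stmn2. The other 4 were at most 0.261 FPKM, among them Syt1 at a ratio of 0.757 (interval, 0.240 to 2.28). The part of such cells in the catenin values was not tested. Ctnna3 was at 0.0785 and 0.153 FPKM, which is only 3 and 5 fragments. Each alpha-catenin row enclosed a leucine-rich repeat gene of the opposite strand, Lrrtm2 in Ctnna1, Lrrtm1 in Ctnna2 and Lrrtm3 in Ctnna3, all at most 0.607 FPKM. The strand of the reads is not given in the sources used here. For Ctnna3 the nested Lrrtm3, at 0.228 and 0.499 FPKM, was the higher of the pair.

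Genes below 1 FPKM in both libraries numbered 33, from a median of 0.243 FPKM (WT) against 0.186 FPKM (KO). Besides 18 Pcdhb genes they comprised Cdh1, Cdh3, Cdh15, Cdh23, the neuronal type II cadherins Cdh8, Cdh9 and Cdh12, Pcdh8, Pcdh11x, Pcdh12, Pcdh15 and Pcdh20, and Celsr3, Fat2 and Ctnna3. Cdh9 and Pcdhb1 were listed in KO only and Cdh12 in WT only, each with an estimated 1 fragment. Cdh1, the epithelial E-cadherin, was at 0.296 FPKM (WT) against 0.0240 FPKM (KO), from 12 fragments and 1 fragment (ratio 0.0811, interval 0.0019 to 0.548). Cdh3 was at 0.445 and 0.0536 FPKM, from 16 and 2 fragments (ratio 0.121, interval 0.0134 to 0.513). Both epithelial cadherins were thus near the floor in KO. Of the 6 epithelial markers, Krt8, Krt18 and Cldn4 were lower in KO as well (Krt18 at 1.62 and 0.0827 FPKM), Cldn3 was listed in WT only, Epcam in KO only at 0.162 FPKM, and Krt19 was at 32.8 and 23.3 FPKM. Cdh23, a tip-link cadherin of hair cells, was at 0.134 and 0.268 FPKM, from 14 and 28 fragments (interval of the ratio, 1.01 to 4.09), but 2 rows of the opposite strand at up to 8.53 FPKM overlap it. Cdh15, which encodes the M-cadherin of muscle cells, went the other way, at 0.0392 FPKM (WT) against 0.458 FPKM (KO). With 1 fragment and 14 fragments its ratio of 11.7 had an interval of 1.78 to 494. Of 10 skeletal muscle markers 9 were listed, with sums of 38.3 FPKM (WT) against 99.7 FPKM (KO), and Myog was at 0.160 and 4.12 FPKM. Pax7 and Myh3 were listed in WT only, and Myod1 in KO only. The part of epithelial or muscle cells in these values was not tested.

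**Figure D4:**
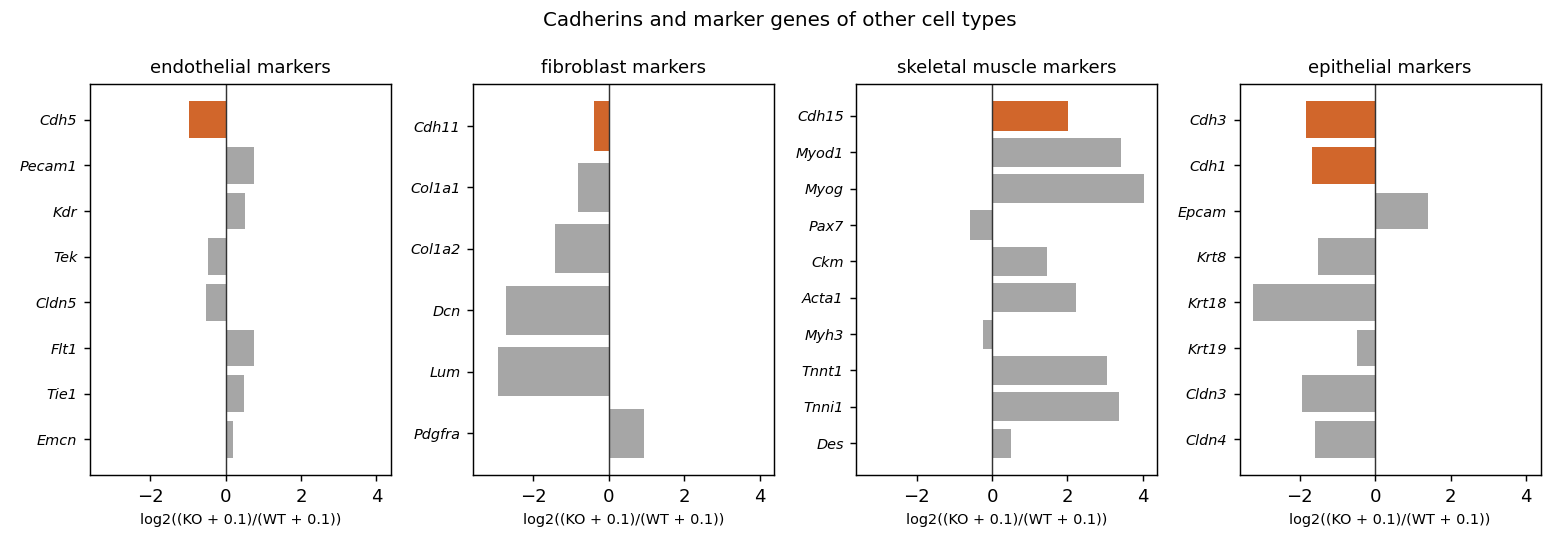
Bars give log2((KO + 0.1)/(WT + 0.1)) of FPKM for 5 cadherins (orange) and for the marker genes of 4 cell types (grey), with 0.1 FPKM added so that genes listed in 1 library have a bar. Cdh5, Cldn5 and Tek point down while Pecam1, Kdr, Flt1, Tie1 and Emcn point the other way. Cdh1, Cdh3, Cdh11 and Cdh15 point the same way as most markers in their panels.

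Partners of these proteins were examined in 5 lists with 54 genes, of which 51 were listed and 44 reached 1 FPKM. Of these 44, Dvl3 was above 3/2 and Ctnnal1 and Dsp were below 2/3, and 41 lay between. These are 2.27% and 4.55%, beside 9.56% and 8.28% of all genes analysed. The median log2 ratio, with 0.1 FPKM added, was 0.08. Ctnnb1, which encodes beta-catenin, was at 224 and 235 FPKM, and Vcl, which encodes the actin linker vinculin, at 202 and 194 FPKM. All 7 analysed regulators of the protocadherin clusters, among them Ctcf (15.2 and 16.3 FPKM) and the cohesin subunit Rad21 (33.7 and 33.9 FPKM), lay between the limits. All 9 cytoplasmic partners, including the WAVE complex genes Nckap1 and Cyfip1, lay between the limits too. In the polarity list, Dvl3 was at 17.0 FPKM (WT) against 28.9 FPKM (KO), giving a ratio of 1.70 (interval, 1.51 to 1.91), while Dchs1, the ligand of Fat4, was at 1.02 and 1.47 FPKM (interval of the ratio, 1.12 to 1.87). Among desmosome genes, Dsp (desmoplakin) was at 2.62 and 1.46 FPKM, giving a ratio of 0.557 (interval, 0.447 to 0.691). Ctnnal1, which encodes α-catulin, was at 25.1 FPKM in WT and was not listed in KO. Its WT locus overlapped the KO row of Tmem245, which was at 21.5 FPKM (WT) against 53.2 FPKM (KO), so the fall of Ctnnal1 cannot be told apart from a change in how the rows were named.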

How the data were processed

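RNA-seq was done on cultured DG astrocytes, 1 library per genotype. Paired reads were aligned by the authors to mm9 with TopHat (version 1.4.0 in the submitters' processing notes) and expression was estimated with Cufflinks. The deposited values are FPKM, 1 per gene and library, without counts or confidence bounds. Groups came from the genotype labels. The genes and gene lists were chosen with earlier results of these data known.

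Tables were joined by symbol (the higher value kept where rows shared one), with 0 for a gene that either did not list. Of the 68 genes described, 48 had the same bounds in both tables and 27 overlapped another row. Starts were raised by 1, after which 38.5% of matched WT starts equalled those of GENCODE on NCBIM37 (3.05% as written). Depth was fitted to genes under 0.15 FPKM with 1 transcript over 1000 bases, of which 69.8% in WT and 71.0% in KO lay within 5% of 1, 2 or 3 fragments, after 170 bases were taken off the length in each library. Fragments per gene used the longest annotated transcript, so intervals are too narrow where a shorter one is expressed. Genes with at least 5 FPKM, or past a limit with at least 1 FPKM, were named, with others of each role. Genes under 1 FPKM with an interval that left out 1 were named after their values were seen. The computation was tested on simulated data. Alternatives were other minima, pseudocounts, scalings and limits, and the summing or leaving out of overlapping rows. Scripts ran in Python 3.11.15 with scipy 1.17.1, numpy 2.4.6, matplotlib 3.10.9 and pandas 2.3.3.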

Additional observations from a re-analysis of the deposited data

How the results depend on the processing

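The main counts were 6 genes above 3/2 and 2 below 2/3, of 35. A minimum of 0.1 FPKM gave 12 and 10 of 62 genes, and no minimum 14 and 13 of 68. With a minimum of 5 FPKM the counts were 2 and 1 of 18 genes, or 11.1% and 5.56%. Over all genes the shares were 9.56% and 8.28%, computed at the 1 FPKM minimum only. A minimum of 1 FPKM in both libraries left 1 of 32 genes below 2/3. Leaving out genes whose bounds differed between the tables left 1 of 18, an alternative chosen after seeing the data. A pseudocount of 1 FPKM left 3 above 3/2, and limits of 2 and 1/2 gave 1 and 1. The other alternatives kept both counts within 1.5 times. The median log2 ratio stayed positive in each alternative run. Of 138 alternative ratios of 23 named genes, no gene past a limit changed direction and 137 stayed inside the counting interval (for Pcdhgc5, which has none, between the limits). The exception was Celsr1 with a pseudocount of 1 FPKM, at 1.43. Cdh2 and Pcdh18, both near 1, fell on either side of it (0.986 to 1.01 and 0.982 to 1.00). A pseudocount only pulls a ratio towards 1. The factors applied to KO were 1.003, 0.987 and 0.982, and summing rows that shared a symbol changed none of these ratios. Such alternatives could not have reversed a gene past a limit, so the tally is no check of direction. With the span of the row in place of a longer annotated transcript, for 4 Pcdhb genes and chosen after seeing the data, the upper bound for Pcdhb21 went from 0.734 to 1.00. Genes under 1 FPKM rest on few fragments and their ratios are imprecise at this depth. No paired analysis was possible because each genotype has 1 library.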

Other observations

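Other genes of the cadherin superfamily, in a list of 9 written after the values above had been seen, were listed for 7. Clstn1, which encodes a calsyntenin that carries cargo along axons, was the highest, at 40.3 FPKM (WT) against 47.0 FPKM (KO) (ratio 1.17, interval 1.09 to 1.25). Clstn2 was lower in KO, at 6.28 and 4.56 FPKM (ratio 0.725, interval 0.597 to 0.880). Ret, the cadherin-like receptor kinase for GDNF family ligands, was at 4.49 FPKM (WT) against 6.87 FPKM (KO), and at 1.53 the ratio passed 3/2 (interval, 1.32 to 1.77). Cdhr1 was at 1.88 and 1.53 FPKM, with an interval of the ratio of 0.573 to 1.16.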
